A study of Homo sapiens with 12 samples.

Results

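The course from day 3 to day 7 was followed inside one genotype, the H7 cells labelled E2A knockout, with the 2 libraries labelled day 7 set against the 2 labelled day 3. These 4 libraries were taken by their titles out of the 12 of the series, and no measured value entered the choice. H7 is an established human embryonic stem cell line, here driven towards cardiomyocytes in culture, and day 3 is called cardiac mesoderm and day 7 cardiomyocytes in the labels. All 4 libraries carry the genotype label E2A -/-. The sources used here do not give the edited position, the number of clones or the origin of the replicates. A p-value here therefore reflects how far apart these particular libraries lie, a spread that may be technical. The wild-type libraries of the same days (2 at day 3 and 2 at day 7) serve as the comparison course, and the 2 courses share no library.

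E2A is the older name of TCF3, a basic helix-loop-helix factor of the E protein class. E proteins bind the E-box, alone or paired with a tissue-specific partner, and the ID proteins, which lack the DNA-binding basic region, hold E proteins in dimers that cannot bind. On the way to heart muscle, stem cells first pass through a primitive-streak state driven by NODAL and WNT signals, then through mesoderm with cardiac potential, and then switch on the cardiac transcription factors and the proteins of the sarcomere.

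Levels are FPKM, a count of fragments per length of transcript and per library size, for 17096 listed genes, of which 16295 reached 1 FPKM in at least 2 libraries and were tested. Summed FPKM was 668618 and 649709 in the labelled knockout libraries of day 3 and 648915 and 605392 in those of day 7, and replicates correlated across genes at r of 0.985 and 0.98. Mitochondrial transcripts held 18.8% and 17.4% of the sum at day 3 and 20.2% and 18.5% at day 7. Changes are day 7 minus day 3 on log2(FPKM + 1), which shrinks the change of weakly expressed genes, with the SE of limma. A gene passed at a Benjamini-Hochberg adjusted p below 0.05 over all genes tested. RNA came from whole cultures, so fewer cells of a type and less RNA per cell cannot be told apart.

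Between the days 4668 genes passed (28.6% of those tested), 2811 of them higher at day 7 (17.3%) and 1857 lower (11.4%), by limma with its trend option. The median change over all genes tested was 0.06. The counts of the gene lists below stand beside these shares of 17.3% higher and 11.4% lower. The 4 libraries did not overlap between the days in 10600 of the 16295 genes tested. At least 2-fold changes on this scale were made by 1674 genes, 1134 upward and 540 downward, and changes of 3 or more by 67 upward and 18 downward. Without replicate 1 of day 3 the count dropped to 2951. Sarcomere and cardiac factor genes led the rises, and the primitive streak factor MIXL1 and the NODAL antagonist CER1 were among the largest falls.

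TCF3 itself (GRCh38 chromosome 19, 1609290 to 1652605, minus strand) did not pass. It stood at 146 and 148 FPKM at day 3 and at 180 and 172 FPKM at day 7, a change of 0.26 (SE 0.19, limma adjusted p = 0.355). The message of the edited gene was therefore present at both days, whatever the state of the protein, which was not measured, and the genotype is named here only as labelled. The related E proteins TCF4, at 66.9 and 55.2 then 70.5 and 42.1 FPKM, and TCF12, at 40.9 and 23.7 then 49.1 and 41.1 FPKM, did not pass either (adjusted p = 0.669 and 0.173 with limma). In TCF4 the libraries of the days overlapped, and TCF12 passed when day 3 replicate 1 was left out (0.90).

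All 4 ID genes, which encode the inhibitors of E proteins, rose. ID1 (chromosome 20, 31605283 to 31606515, plus strand) went from 65.7 and 73.7 to 336 and 311 FPKM, a rise of 2.20 (SE 0.11, limma adjusted p = 3.82e-07). ID4 went from 6.71 and 5.97 to 52.7 and 59.3 FPKM (2.96, SE 0.14), ID3 from 33.8 and 36.8 to 91.7 and 103 FPKM (1.44, SE 0.12), and ID2 from 109 and 126 to 175 and 185 FPKM (0.62, SE 0.13). For each of the 4 genes both libraries of day 7 lay above both of day 3. The libraries of the days lay apart in 10600 of all 16295 genes tested. The wild-type course of ID1 was 1.86, and the difference between courses did not pass (0.34, adjusted p = 0.168 with limma). ID3 rose more than in the wild type (difference 1.16, adjusted p = 0.00119) and so did ID4 (1.27, adjusted p = 0.00165), whereas ID2 rose less (-1.01, adjusted p = 0.00348).

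The genes with the largest rises and falls are shown next with the DNA before their start, because the E-box is the sequence that the E protein class binds. The stretches come from RefSeq on GRCh38.p14, run 5′ to 3′ on the gene's strand, begin 250 bases before the RefSeq gene start and stop at the first base that a GENCODE 29 exon covers. Capitals mark the E-box letters CANNTG, which read as the same pattern on both strands. Shown are the 3 largest rises and 2 largest falls for which at least 150 such bases were left, MYH6 at chr14:23408278-23408523 (minus strand), MYL7 at chr7:44141333-44141582 (minus), TNNT2 at chr1:201377763-201377930 (minus), MIXL1 at chr1:226223414-226223617 (plus) and CER1 at chr9:14722734-14722983 (minus).
MYH6: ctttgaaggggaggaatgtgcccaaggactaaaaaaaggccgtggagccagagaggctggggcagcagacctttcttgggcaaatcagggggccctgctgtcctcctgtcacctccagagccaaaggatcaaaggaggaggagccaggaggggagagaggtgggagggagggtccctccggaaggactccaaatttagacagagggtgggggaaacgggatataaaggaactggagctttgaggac
MYL7: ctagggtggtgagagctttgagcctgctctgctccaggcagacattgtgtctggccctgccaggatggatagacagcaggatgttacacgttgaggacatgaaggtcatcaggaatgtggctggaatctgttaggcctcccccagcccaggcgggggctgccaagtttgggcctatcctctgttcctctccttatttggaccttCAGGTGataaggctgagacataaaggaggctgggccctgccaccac
TNNT2: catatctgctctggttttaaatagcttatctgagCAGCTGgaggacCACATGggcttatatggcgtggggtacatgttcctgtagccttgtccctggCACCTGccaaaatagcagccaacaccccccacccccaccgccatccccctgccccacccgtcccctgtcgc
MIXL1: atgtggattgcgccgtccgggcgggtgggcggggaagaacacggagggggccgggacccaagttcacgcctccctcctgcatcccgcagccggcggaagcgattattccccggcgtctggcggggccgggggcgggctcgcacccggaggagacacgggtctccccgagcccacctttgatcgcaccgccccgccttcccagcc
CER1: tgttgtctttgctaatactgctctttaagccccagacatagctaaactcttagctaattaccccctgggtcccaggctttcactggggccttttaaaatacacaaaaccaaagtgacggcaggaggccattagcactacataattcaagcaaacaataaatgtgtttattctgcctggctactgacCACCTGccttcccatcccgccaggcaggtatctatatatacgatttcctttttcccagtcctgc

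In these stretches MYH6 and MIXL1 held no E-box, MYL7 held CAGGTG starting at -46, CER1 held CACCTG at -64, and TNNT2 held CAGCTG at -216, CACATG at -204 and CACCTG at -153, counted from the RefSeq gene start. That start can differ from the GENCODE places given in this report. For TNNT2 82 bases of the window before it lie in a GENCODE exon. CANNTG is common, present in 61.8% of the 35116 upstream windows of 250 bases in the table, CAGCTG in 14% and CAGGTG or its reverse CACCTG in 17.5%. Of the 12 largest rises 5 had exactly 1 such window and 4 of these held CANNTG, and of the 12 largest falls 4 had 1 and 3 of these held it. These are descriptions of letters in a window, not of binding.

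The thick filament of the sarcomere gave the largest change of all. MYH6 (chromosome 14, 23381990 to 23408277, minus strand), the atrial myosin heavy chain, stood at 0.314 and 0.382 FPKM at day 3 and at 555 and 463 FPKM at day 7, a rise of 8.56 (SE 0.13, limma adjusted p = 5.25e-11). MYL7, the atrial regulatory light chain, rose from 1.02 and 2.08 to 301 and 304 FPKM (6.93, SE 0.32), and MYL4, the atrial essential light chain, from 1.13 and 2.27 to 214 and 213 FPKM (6.34, SE 0.21). In each case every library of day 7 was far above every library of day 3. MYH7, the slow and ventricular myosin heavy chain, was low at both days, at 0.0657 and 0.0273 then 0.551 and 0.635 FPKM. Its change of 0.61 (SE 0.17, adjusted p = 0.0228) passed, but the call ended without any 1 of the 4 libraries and in a fit on the compared groups alone. Of the 5 members tested 4 rose, with a median of 6.34, and MYH7B did not pass (0.48). MYH6 and MYH7 are neighbours with similar sequences, and reads that both could hold cannot be placed here.

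In the thin filament 7 of 9 genes rose and 1 fell (median 3.17). TNNT2 (chromosome 1, 201359008 to 201377762, minus strand), cardiac troponin T, went from 1.22 and 0.537 to 237 and 182 FPKM (6.82, SE 0.21, limma adjusted p = 1.52e-08). TNNI1, slow skeletal troponin I and the form of the early heart, rose from 1.03 and 0.235 to 81.1 and 114 FPKM (5.94), and TNNC1, slow and cardiac troponin C, from 3.8 and 5.88 to 51.6 and 49.9 FPKM (3.17). TPM1, tropomyosin, was already at 168 and 167 FPKM at day 3 and reached 1294 and 1164 FPKM, the highest level of the group. ACTC1, cardiac actin, rose from 3.48 and 7.65 to 201 and 173 FPKM (4.91, SE 0.26), with the caution that reads can be shared among the actin genes. TNNT1, slow skeletal troponin T, was the gene that fell, from 130 and 133 to 94.3 and 88.2 FPKM (-0.52, SE 0.11). TNNI3, the adult cardiac troponin I, did not pass, at 25.6 and 27.1 then 32.1 and 33.8 FPKM (0.31, adjusted p = 0.0656).

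**Figure D1:**
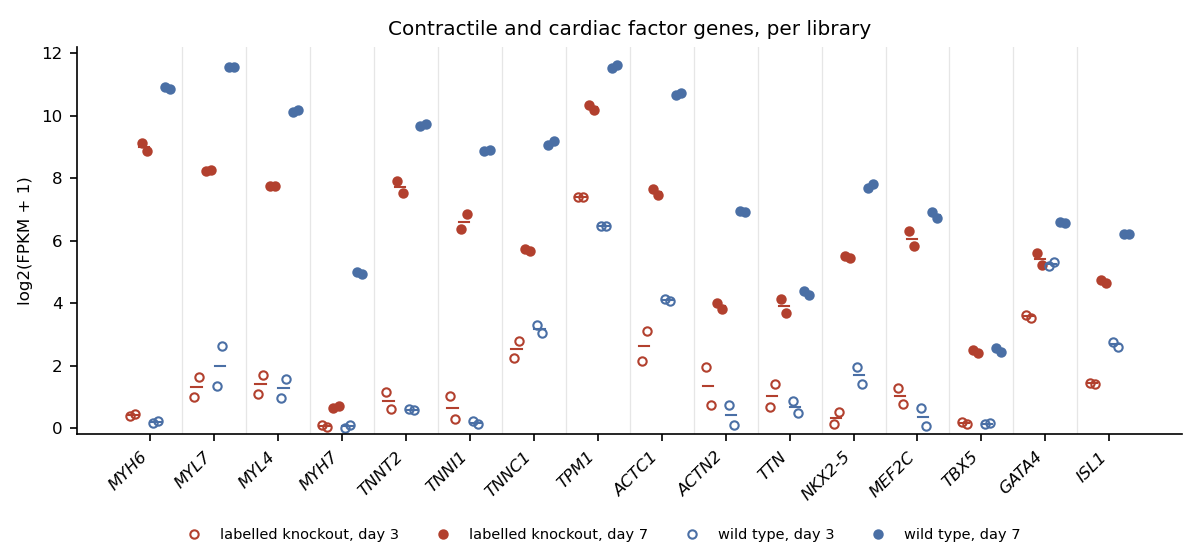
Level of contractile and cardiac factor genes in each library, as log2(FPKM + 1) on the vertical axis, with open symbols for day 3, filled symbols for day 7, red for the labelled knockout, blue for the wild type and a dash for the mean of 2 libraries. In the labelled knockout MYH6, MYL7, MYL4 and TNNT2 rise by 6.34 or more, MYH7 stays near the bottom, and the filled red symbols lie below the filled blue ones for most genes, TBX5 being close to level.

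Of the 13 Z-disc and M-band genes tested 12 rose and none fell (median 1.49). XIRP1, an actin-binding protein of the intercalated disc, went from 0.131 and 0.0687 to 17.9 and 14.5 FPKM (3.96, SE 0.18). LDB3, a Z-disc scaffold, rose from 0.643 and 0.189 to 11.6 and 8.87 FPKM (2.99), and TTN, the giant spring titin, from 0.589 and 1.65 to 16.4 and 11.9 FPKM (2.87). ACTN2, sarcomeric alpha-actinin, went from 2.89 and 0.688 to 15.2 and 12.9 FPKM (2.55, SE 0.33), and its libraries of day 3 lay further apart than those of day 7. TCAP, the titin cap, was the member that did not pass (0.61, adjusted p = 0.0515 with limma).

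Calcium handling rose in part. Of 10 genes 6 rose and 1 fell (median 0.90). SLC8A1, the sodium-calcium exchanger, rose from 0.137 and 0.255 to 15.5 and 11.8 FPKM (3.60, SE 0.15), JPH2, which ties the cell membrane to the calcium store, from 0.813 and 0.554 to 16 and 13.4 FPKM (3.22), and RYR2, the calcium release channel, from 0.451 and 0.291 to 2.81 and 1.97 FPKM (1.30). ATP2A2, the calcium pump of that store, was high at both days, at 110 and 105 then 120 and 110.5 FPKM, and did not pass. ASPH, whose locus also encodes junctin, fell (-0.55), a call that ended without day 3 replicate 1 or day 7 replicate 2. Among 15 ion channel and gap junction genes 2 rose and 3 fell (median 0.13), against 17.3% and 11.4% of all genes. The rises numbered 4 without day 7 replicate 2, 1 without any of the other 3 libraries and 5 with scaling on summed nuclear genes, and the median was -0.07 without day 3 replicate 2. CACNA1D, a calcium channel of pacemaker cells, rose from 0.0412 and 0.0694 to 6.72 and 5.21 FPKM, and CACNA1G rose by 0.72, a call that ended under 5 of 12 settings. GJA1, the gap junction protein connexin 43, fell from 500 and 464 to 213 and 210.5 FPKM (-1.18, SE 0.10), and HCN2 (-0.89) and KCNJ5 (-0.77) fell too. HCN4, the main pacemaker channel, stood at 6.11 and 5.73 then 5.64 and 4.74 FPKM and did not pass.

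Transcription factors of the heart rose in 12 of 16 cases with none lower (median 1.99). NKX2-5 (chromosome 5, 173232109 to 173235357, minus strand), a homeobox factor of cardiac progenitors, went from 0.106 and 0.424 to 44.8 and 42.5 FPKM (5.15, SE 0.19, limma adjusted p = 4.38e-08). MEF2C, a MADS-box factor of muscle, rose from 1.42 and 0.708 to 77.4 and 55.8 FPKM (5.04), TBX2, a repressor of chamber genes, from 0.0745 and 0.114 to 8.98 and 10.6 FPKM (3.30), and ISL1, a factor of second heart field progenitors, from 1.75 and 1.66 to 25.6 and 24.2 FPKM (3.26). For these factors the libraries of the days did not overlap, as in 10600 of all 16295 genes tested. HAND1, which is named here after its values were seen, did not pass, at 20.4 and 24.1 then 23.8 and 21.6 FPKM (0.03), while it rose by 1.48 in the wild type, and the difference of courses passed (adjusted p = 0.000556 with limma). MEF2A, IRX4 and HEY2 did not pass either.

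In the group of chamber and muscle energy genes 5 of 8 rose and none fell (median 1.24). ANKRD1, a stretch-responsive cofactor of the sarcomere, rose from 0.134 and 0.184 to 34.8 and 37.6 FPKM. MB, myoglobin, rose to 8.66 and 8.36 FPKM (2.73), CKM, the muscle creatine kinase, to 2.39 and 2.1 FPKM (1.41), and NPPA, the atrial natriuretic peptide, from 0.636 and 0.641 to 2.09 and 2.9 FPKM (1.08, SE 0.17). BMP10 was the other riser. CKB, the brain creatine kinase, stood at 223 and 245 then 179 and 205 FPKM and did not pass (-0.28), against a rise of 2.78 in the wild type (difference adjusted p = 5.53e-06 with limma). The 8 cardiomyocyte markers summed to 31.7 and 31.5 FPKM at day 3 and to 1190 and 1040 FPKM at day 7, with MYH7 as the marker still under 1 FPKM. In the same libraries of day 7 the 4 pluripotent markers listed summed to 1220 and 1140 FPKM and the 5 epithelial markers to 2970 and 2230 FPKM. LIN28A made up most of the pluripotent sums and KRT8 the largest part of the epithelial ones, with levels given below. Defining markers of the labelled cell type were thus present beside genes listed as markers of others. Such sums were not particular to the labelled knockout. The full epithelial list summed to 3244 and 2477 FPKM at day 7, and to 8351 and 8393 FPKM in the wild type. For the pluripotency list the sums were 1500 and 1396 FPKM, against 916 and 892 FPKM in the wild type.

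Primitive streak factors fell in 8 of 9 cases (median -2.22). MIXL1 (chromosome 1, 226223618 to 226227054, plus strand), a homeobox factor of the streak, dropped from 106 and 90.2 to 1.36 and 1.16 FPKM (-5.45, SE 0.22, limma adjusted p = 6.85e-08). EOMES (chromosome 3, 27715949 to 27722711, minus strand), a T-box factor of mesendoderm, dropped from 52.3 and 48.9 to 0.472 and 0.856 FPKM (-4.96, SE 0.18), and LHX1, a LIM factor of the anterior streak, from 96.5 and 88.9 to 1.65 and 2.54 FPKM (-4.93, SE 0.40). For each of them both libraries of day 3 lay far above both of day 7. SP5, a target of WNT signalling, fell by 2.43 and TBX6, a factor of presomitic mesoderm, by 1.92. EVX1 was the member that did not pass, at 1.97 and 1.67 then 2.6 and 2.46 FPKM.

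Of 17 genes of the NODAL and activin pathway, which induces the streak, 7 fell, 3 rose and 7 did not pass (median -0.25, and -0.02 without day 3 replicate 1). Of all genes 11.4% fell and 17.3% rose. CER1 (chromosome 9, 14719724 to 14722717, minus strand), a secreted antagonist of NODAL, had the largest fall of all named genes, from 122 and 127.5 to 1.18 and 0.191 FPKM (-6.29, SE 0.27, limma adjusted p = 1.06e-07). TDGF1, the NODAL coreceptor, went from 129 and 118 to 6.05 and 6.84 FPKM (-4.07, SE 0.14), and LEFTY2, a feedback inhibitor, from 4.52 and 5.55 to 0.152 and 0.101 FPKM (-2.42). Among the risers were SMAD7, an inhibitory SMAD (1.53), and CFC1 (0.93). Other large falls came in FGF17, a growth factor of the streak, from 58.6 and 69.9 to 0.704 and 0.781 FPKM (-5.22), in ESRG, a non-coding RNA of stem cells, from 199 and 173 to 2.17 and 2.18 FPKM (-5.88), and in CD9, a tetraspanin of stem cells, from 139 and 176 to 9.02 and 11.2 FPKM (-3.83). SAMD3 (-3.73), LZTS1 (-3.44) and CTD-2311M21.2 (-4.51) completed the 12 largest falls with BHLHE40, which is described with the comparison of courses.

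Pluripotency genes fell in 8 of 10 cases (median -1.05), and in 7 with scaling on summed nuclear genes or a pseudocount of 0.1. Fewer falls passed under each leave-out of a labelled knockout library, where the median lay between -1.05 and -0.95. POU5F1, the core factor OCT4, went from 851 and 852 to 130 and 114 FPKM (-2.79, SE 0.20). L1TD1, an RNA-binding protein of stem cells, fell from 40.5 and 40.5 to 9.4 and 7.85 FPKM (-2.11), DPPA4 from 212 and 194 to 85.7 and 70.2 FPKM (-1.37), and LIN28A, which blocks let-7 maturation, from 1177 and 1117 to 852 and 795 FPKM (-0.48, SE 0.10). SOX2, shared by pluripotent and neural cells, did not pass, at 209 and 193 then 153 and 157 FPKM (-0.37, adjusted p = 0.114 with limma), and neither did SALL4 (0.20). The pluripotent markers had summed to 2450 and 2360 FPKM at day 3. Their part in the other results was not tested.

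Early cardiac mesoderm genes split, with 5 of 15 higher and 8 lower (median -0.46). APLNR, the apelin receptor, fell from 230 and 220 to 90 and 70.3 FPKM (-1.49, SE 0.16), and SNAI1, a repressor of E-cadherin, fell by 0.84. PDGFRA, a receptor of cardiac mesoderm, rose from 16.6 and 13.1 to 62.6 and 51.7 FPKM (1.88), BMP4 rose by 1.65, TMEM88, a WNT inhibitor, by 1.59 and MSX2, a BMP target, by 1.61, with PDGFRB as the fifth riser. KDR, a receptor of mesoderm and endothelium, fell from 71.4 and 58 to 51.9 and 44 FPKM (-0.42), a call that ended under 5 of 12 settings. Among 10 genes of paraxial mesoderm 5 fell and 2 rose (median -0.60). DLL3, a NOTCH ligand of presomitic mesoderm, dropped from 43 and 48.2 to 3.67 and 3.96 FPKM (-3.27, SE 0.20). The risers were DLL1, from 17.3 and 18.5 to 59.7 and 53 FPKM (1.60), and PAX3.

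PAX3 (chromosome 2, 222199888 to 222298996, minus strand), a paired-box factor of somites, dorsal neural tube and neural crest, went from 0.353 and 0.071 to 26.6 and 25 FPKM, a rise of 4.48 (SE 0.18, limma adjusted p = 6.84e-08). In the wild type it stood at 0.214 and 0.453, then 0.342 and 0.204 FPKM. Its lists are small. Of 5 neural crest genes 4 rose, PAX3, TFAP2A (2.10), SOX9 (1.48) and ETS1 (0.49), while SOX10, a defining marker, did not pass at 2.11 and 2.9 then 5.6 and 4.49 FPKM. The call of ETS1 ended in a fit on the compared groups alone and without 3 of the 4 libraries in turn.

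**Figure D2:**
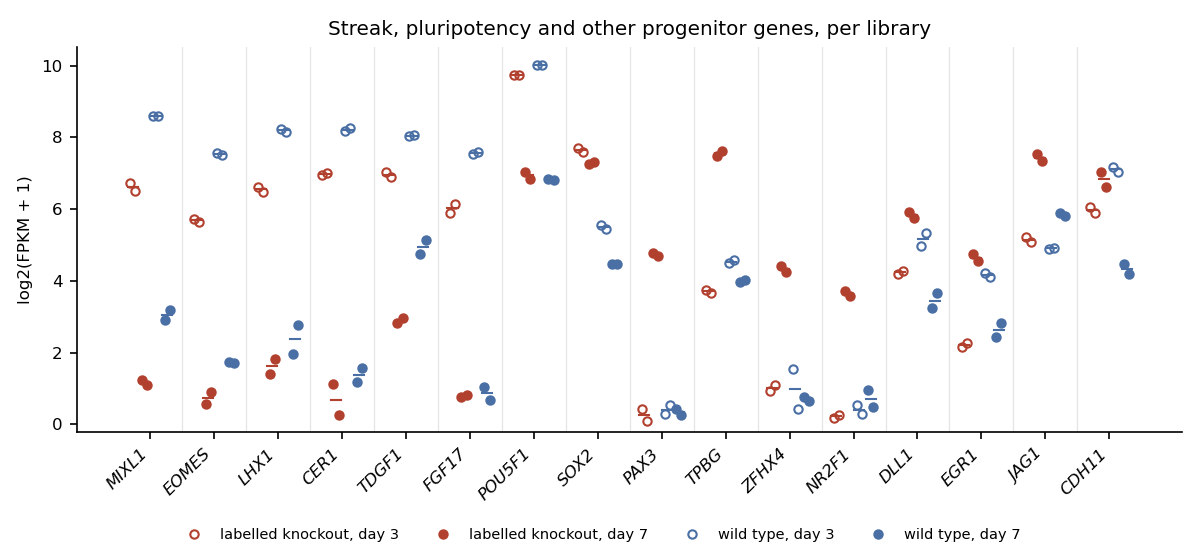
Level of streak, pluripotency and other progenitor genes in each library, as log2(FPKM + 1) on the vertical axis, with open symbols for day 3, filled symbols for day 7, red for the labelled knockout, blue for the wild type and a dash for the mean of 2 libraries. Streak genes on the left fall in both genotypes, whereas PAX3, TPBG, ZFHX4 and NR2F1 rise in the labelled knockout alone among the libraries drawn, with changes of 4.48, 3.85, 3.31 and 3.42.

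In the BMP pathway, whose targets include the ID genes, 12 of 21 members rose and none fell (median 1.23). Among the ligands BMP4 went from 24.7 and 25.7 to 84.8 and 77.8 FPKM. SMAD9, which carries the signal to the nucleus, went from 0.618 and 0.527 to 16.2 and 11.7 FPKM (3.23), and the feedback inhibitors SMAD6, from 6.62 and 8.77 to 44.6 and 40.6 FPKM (2.34), and BAMBI, a decoy receptor, from 16.4 and 17.9 to 158 and 153 FPKM (3.11, SE 0.10), rose as well. GREM1, a secreted BMP antagonist, rose from 0.225 and 0.199 to 10.85 and 10.81 FPKM (3.29, SE 0.17). The wild-type rise of GREM1 was 0.89, and the difference passed (2.40, adjusted p = 0.000125 with limma).

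WNT pathway genes were mixed, with 9 of 34 higher and 7 lower (median 0.09). The secreted antagonist DKK1 fell from 140.5 and 122 to 14.3 and 12.7 FPKM (-3.19, SE 0.20) and SFRP1 from 374 and 345 to 161 and 148 FPKM (-1.21), while another, FRZB, rose from 2.78 and 3.2 to 17.5 and 15.6 FPKM (2.14). FZD4, a receptor, rose by 2.73. In the NOTCH pathway 9 of 18 genes rose and 2 fell, against 17.3% and 11.4% of all genes (median 0.58). The NOTCH rises numbered 13 with scaling on summed nuclear genes and 8 with median-ratio rescaling. Fewer passed without day 3 replicate 2 or without day 7 replicate 2. JAG1, a ligand, rose from 36.5 and 32.7 to 184 and 162.5 FPKM (2.29, SE 0.15), the receptor NOTCH2 from 20.3 and 17.4 to 51.4 and 42.2 FPKM (1.26), and HES4, a target, from 2 and 2.03 to 48.6 and 53.8 FPKM (4.11), whereas the ligand DLL3 and the factor HES6 (-0.78) fell. The call of HES6 ended without day 7 replicate 1.

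Of 21 FGF and ERK feedback genes 5 rose and 6 fell, against 17.3% and 11.4% of all genes (median 0.06, and below 0 with median-ratio rescaling). DUSP6, a phosphatase that restrains ERK, rose from 23.6 and 29.8 to 121 and 124.5 FPKM (2.17), and FGF10, a ligand of the second heart field, from 1.02 and 0.419 to 7.06 and 7.86 FPKM (2.32), with FGF8, FGFR3 and DUSP4 as the other risers. FGF17 and FGF19 (-1.57) fell. In the retinoid pathway 5 of 17 rose and 6 fell, against 17.3% and 11.4% of all genes (median -0.15). NR2F2, from 0.946 and 0.854 to 21 and 31.1 FPKM (3.81), and NR2F1, from 0.137 and 0.201 to 12.2 and 10.9 FPKM (3.42), encode orphan nuclear receptors induced by retinoic acid. RARB, a retinoic acid receptor and target, rose by 3.01, CYP26C1, which degrades retinoic acid, by 4.10, and RXRA was the fifth riser. CRABP2 fell by 0.47, a call that ended under 8 of 12 settings, and only 3 of the 6 falls were left without either replicate of day 3 or without day 7 replicate 2.

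Markers of other cell types moved in several directions. All 9 smooth muscle genes rose (median 1.51), and 8 did with median-ratio rescaling. Fewer still passed without day 3 replicate 2 or without day 7 replicate 1. The median was 1.10 without day 3 replicate 2 and 1.81 without day 3 replicate 1. Among the risers were ACTA2, smooth muscle actin, from 0.64 and 1.71 to 50.5 and 44.3 FPKM (4.52), and TAGLN from 16 and 16.7 to 78 and 74.3 FPKM (2.15). Their 4 defining markers summed to 26.3 and 24.9 FPKM at day 3 and to 158 and 141 FPKM at day 7, and early cardiomyocytes express these genes too. Endoderm genes rose in 7 of 9 cases and 1 fell (median 1.19), with APOA1, an apolipoprotein, from 0.116 and 0.235 to 9.01 and 8.35 FPKM (3.04) and SOX17, a factor of definitive endoderm, lower from 22.6 and 27.2 to 4.26 and 4.42 FPKM (-2.27). The 5 endoderm markers listed of 8 summed to 34.1 and 37.4, then 46.8 and 46.2 FPKM, and none was under 1 FPKM at day 7.

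Of 10 endothelial genes 4 rose and 2 fell, against 17.3% and 11.4% of all genes (median 0.72). TEK, the angiopoietin receptor, rose from 0.3 and 0.423 to 6.18 and 5.65 FPKM (2.34), and CDH5, vascular cadherin, from 0.109 and 0.144 to 2.17 and 2.59 FPKM (1.58), with PECAM1 and ETV2 as the other risers and FLT1 (-1.31) and KDR as the genes that fell. Without day 3 replicate 1 or day 7 replicate 2 the rises numbered 2. The call of PECAM1 ended without either library of day 3 or without day 7 replicate 2. In the neural list 4 of 13 rose and 4 fell, against 17.3% and 11.4% of all genes (median -0.22). Fewer of these falls passed under each leave-out of a labelled knockout library. SIX3, a forebrain factor, rose from 1.12 and 0.385 to 4.73 and 5.9 FPKM (1.88) and SOX3 by 1.93, with MAP2 and ZIC1 as the other risers. TUBB3, neuronal tubulin, fell from 148 and 163 to 68.6 and 72.5 FPKM (-1.13), STMN2 by 1.48, and FEZF1 and ZIC2 fell too. The 6 neural markers listed of 8 summed to 82.3 and 84.5, then 59.5 and 68.5 FPKM.

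Keratins of simple epithelium rose, and E-cadherin and EPCAM fell. KRT18 went from 105 and 114 to 398 and 435 FPKM (1.92, SE 0.10) and KRT8 from 316 and 264 to 1828 and 1074 FPKM (2.27, SE 0.30), while CDH1, E-cadherin, dropped by 1.32, CLDN6, a claudin, from 287 and 325 to 150 and 141 FPKM (-1.06), EPCAM from 115.5 and 117 to 62.3 and 66.1 FPKM (-0.85), and ESRP1, an epithelial splicing factor, by 0.87. Of the 12 epithelial genes 6 rose and 4 fell (median 0.14), with CLDN4 and CLDN10, both claudins, among those higher. VIM, vimentin, rose from 257 and 257 to 534 and 513.5 FPKM (1.02). RUNX1, the blood factor tested, fell (-1.15), MYH3 of skeletal muscle did not pass (0.03), and TCF21 and UPK3B of the epicardium were under 1 FPKM in all 4 libraries.

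Matrix genes rose in 16 of 21 cases and 1 fell (median 0.72). COL2A1 (chromosome 12, 47972965 to 48004554, minus strand), the fibrillar collagen of cartilage and notochord, went from 12.5 and 10.2 to 362 and 272 FPKM (4.68, SE 0.18), COL1A1 from 12.1 and 13.5 to 290 and 227 FPKM (4.22, SE 0.16), FN1, fibronectin, from 118 and 130 to 508 and 481 FPKM (1.99), and LAMA1, a laminin chain, from 33.6 and 32.8 to 119 and 111 FPKM (1.76). COL6A1 fell (-0.91). Of the 5 HOX genes tested, HOXB1 to HOXB4 rose by between 0.88 and 1.36, the largest being HOXB3, from 3.26 and 3.35 to 11.9 and 8.52 FPKM, and HOXB6 did not pass (-0.08). The call of HOXB1 ended without day 3 replicate 1 or either library of day 7.

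Of 29 axon guidance genes, a class that also patterns heart and vessels, 17 rose and 3 fell (median 0.90). EPHB2, an ephrin receptor, rose from 11.6 and 9.44 to 71.3 and 72.9 FPKM (2.67), SLIT1, a repellent ligand, from 0.457 and 0.446 to 5.79 and 4.77 FPKM (2.11), and UNC5B, a netrin receptor, from 4.87 and 5.38 to 21.2 and 20.8 FPKM (1.85). NTN1, the netrin, fell from 10.3 and 10.2 to 1.45 and 1.4 FPKM (-2.21) and the semaphorin receptor PLXNA2 by 1.93, with SEMA6A as the other gene that fell. Of 10 imprinted growth genes 4 rose (median 0.15), namely H19, from 6.9 and 8.98 to 163 and 143 FPKM (4.11), its neighbour IGF2 (2.55), DLK1 (1.64) and PEG10 (1.37).

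Of 25 genes of DNA replication and the G1/S step 2 rose and 2 fell, against 17.3% and 11.4% of all genes (median 0.06). With median-ratio rescaling 2 rose and 5 fell (median -0.01), with scaling on summed nuclear genes 5 rose and 1 fell, and no fall was left without day 3 replicate 1 or day 7 replicate 2. The rises numbered 1 without either library of day 3 or day 7 replicate 1, and the median was below 0 without day 3 replicate 2 or day 7 replicate 1. The 4 that passed were MCM7 (0.73), GINS2 (0.52), FEN1 (-0.47) and RFC3 (-0.40), and the calls of GINS2, FEN1 and RFC3 ended under 5, 3 and 9 of 12 settings. Genes of mitosis rose in 12 of 20 cases and 1 fell (median 0.64). Their rises numbered 10 with median-ratio rescaling and in a fit on the compared groups alone. Fewer rises passed under each leave-out of a labelled knockout library, where the median lay between 0.59 and 0.66. KIF20A, a spindle kinesin, went from 21.6 and 19.8 to 53 and 61.7 FPKM (1.42, SE 0.16), CDC20, which activates the anaphase complex, from 49.1 and 53.6 to 101 and 105 FPKM (0.99), TPX2 from 123 and 116 to 198.5 and 191 FPKM (0.70), and BUB1, a checkpoint kinase, fell by 0.78, a call that ended without day 3 replicate 1 or day 7 replicate 2. Of the 4 CDK inhibitors tested CDKN2D rose (0.70), a call that ended without replicate 1 of either day, and CDKN1A did not pass, at 0.28 and 0.593 then 0.776 and 0.487 FPKM. CDKN1C stood at 32.6 and 35.9 then 30.3 and 33.2 FPKM (-0.11), against a wild-type rise of 3.33, and the difference passed (adjusted p = 5.53e-06 with limma).

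Of 29 glycolysis and hypoxia-inducible genes 21 fell in the labelled knockout and 4 rose (median -0.86). HK2 (chromosome 2, 74833981 to 74893359, plus strand), the inducible hexokinase, dropped from 111 and 103 to 24.2 and 22.4 FPKM (-2.15, SE 0.12, limma adjusted p = 5.38e-07), and BNIP3, a mitophagy gene under hypoxia control, from 200 and 197 to 41.7 and 44 FPKM (-2.19, SE 0.12). LDHA, lactate dehydrogenase, went from 1579 and 1474 to 618 and 534 FPKM (-1.41, SE 0.11), and GAPDH from 2986 and 3279 to 1855 and 1943 FPKM (-0.72). The libraries of the days lay apart in 28 of the 29 genes, as they did in 10600 of all 16295 genes tested. The risers were ENO3, the muscle enolase, from 7.38 and 9 to 58.8 and 53 FPKM (2.63), VEGFA (0.68), NDRG1 (0.78) and SLC2A3 (0.35), and only 2 rises were counted without replicate 1 of either day or in a fit on the compared groups alone, where 19 or 20 falls were left. In the wild type 13 of these 29 genes rose and 1 fell, and the difference between courses passed for 24, all with the labelled knockout lower.

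**Figure D3:**
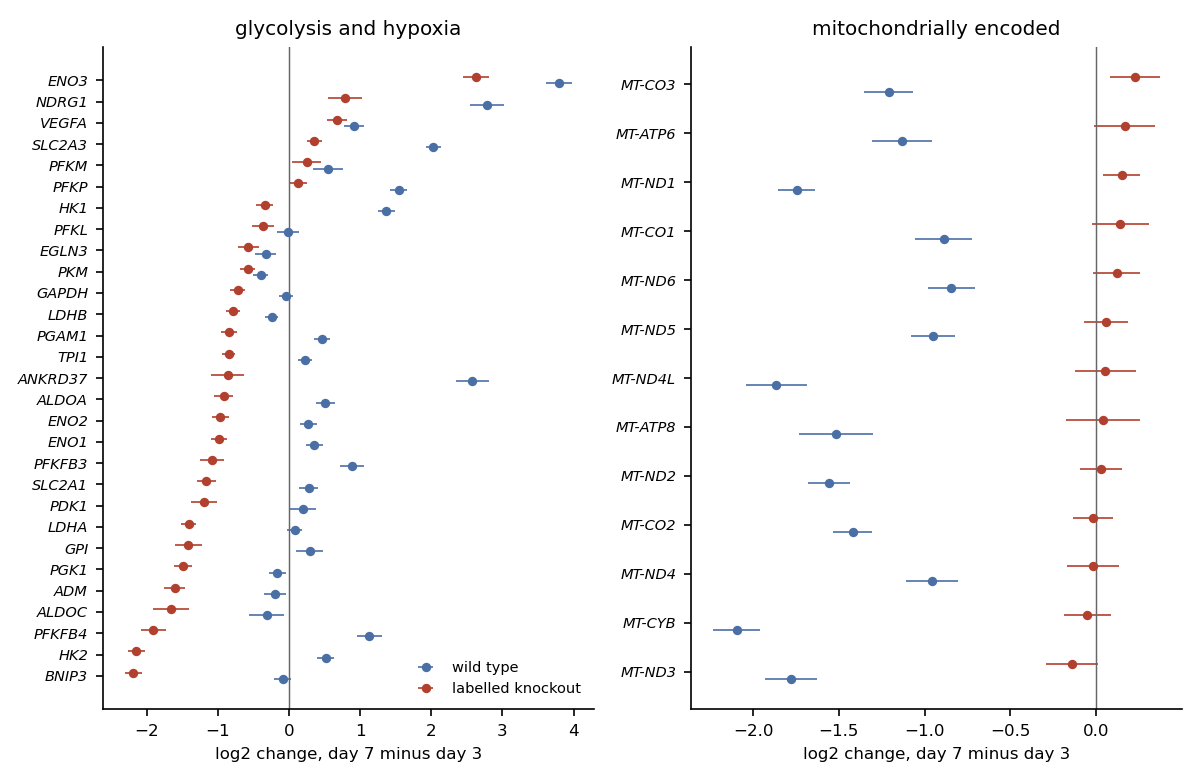
Log2 change from day 3 to day 7 on log2(FPKM + 1) for each glycolysis and hypoxia gene (left) and each mitochondrially encoded gene (right), red for the labelled knockout and blue for the wild type, with points at the estimate of limma and bars of 1 SE. On the left the red points lie mostly below 0 and left of the blue ones, with HK2 at -2.15 against 0.52, and on the right the red points sit near 0 while the blue ones are all negative.

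Of the 13 mitochondrially encoded genes none passed in the labelled knockout by limma (median 0.05, and below 0 with median-ratio rescaling). None passed an unadjusted p of 0.05 either. MT-CO1, a subunit of complex IV, stood at 11520 and 9151 FPKM at day 3 and at 12690 and 10090 FPKM at day 7, with overlapping libraries. The 5 highest genes at day 7 were all of mitochondrial origin, led by MT-ATP8, at 42360 and 35800 then 48110 and 33190 FPKM (0.04), and followed by MT-RNR2, MT-CO1, MT-ND6 and MT-ATP6. In the wild type all 13 fell (median -1.42), and the difference passed for all 13, with the mitochondrial share there at 16.9% and 15.7%, then 8.55% and 8.14%. The part of that share in the differences between courses was not tested. Nuclear copies of these genes can share their reads. Nuclear respiratory chain genes fell in 6 of 36 cases and 1 rose, against 11.4% and 17.3% of all genes (median -0.19). The falls were led by CYCS, cytochrome c, from 62.1 and 63.6 to 29.1 and 30.8 FPKM (-1.04), and COX5A (-0.81). The rise of NDUFV1 (0.29) ended under 7 of 12 settings.

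In fatty acid uptake and oxidation 4 of 21 genes rose and 5 fell, against 17.3% and 11.4% of all genes (median -0.19). PPARGC1A, a coactivator of mitochondrial genes, rose from 0.113 and 0.407 to 4.6 and 5.15 FPKM (2.23), ACSL1 by 1.46 and ACADVL by 1.13, with CPT1B as the other riser, while HADHA fell by 0.68 and FABP3, the heart fatty acid carrier, from 11.2 and 8.79 to 4.96 and 5.29 FPKM (-0.83). The other falls were CPT1A, ACADM and ACAA2, and only 2 of the 5 falls were counted without day 3 replicate 1 and 3 without day 7 replicate 1. Of 19 sterol synthesis genes 1 rose and 3 fell, against 17.3% and 11.4% of all genes (median -0.02, and above 0 with scaling on summed nuclear genes). Among those lower, CYP51A1 (-0.77) and DHCR7 (-0.64, not without day 3 replicate 1 or day 7 replicate 2) fell, while MVK rose by 0.71, a call that ended under 4 of 12 settings.

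Immediate early genes rose in 8 of 13 cases and 1 fell (median 0.61). EGR1 went from 3.49 and 3.8 to 25.7 and 22.6 FPKM (2.43, SE 0.18), EGR3 from 0.132 and 0.0584 to 5.21 and 3.65 FPKM (2.30), and FOS from 1.97 and 1.59 to 9.55 and 7.75 FPKM (1.79). IER3 fell from 54.5 and 61.4 to 9.5 and 12.7 FPKM (-2.30). Without day 3 replicate 2 or day 7 replicate 1 the rises numbered 5. Of 17 stress genes 5 passed, near the 28.6% of all genes, with ASNS (0.41) and ATF3 (1.00) higher and DDIT3 (-0.78), HSPA5 (-0.38) and HSP90B1 (-0.59) lower (median 0.18), and the call of ASNS ended under 8 of 12 settings, those of ATF3 and DDIT3 without day 7 replicate 1 and that of HSP90B1 without day 3 replicate 1. The rises numbered 5 with scaling on summed nuclear genes and 0 without day 7 replicate 1. Of 30 cytoplasmic ribosomal proteins 10 fell and none rose (median -0.31). RPL8 stood at 2891 and 2944 then 2050 and 1886 FPKM (-0.57). That count moved with the scaling, to 19 with median-ratio rescaling and 4 with scaling on summed nuclear genes, and was 2 without day 3 replicate 2 or day 7 replicate 1.

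**Figure D4:**
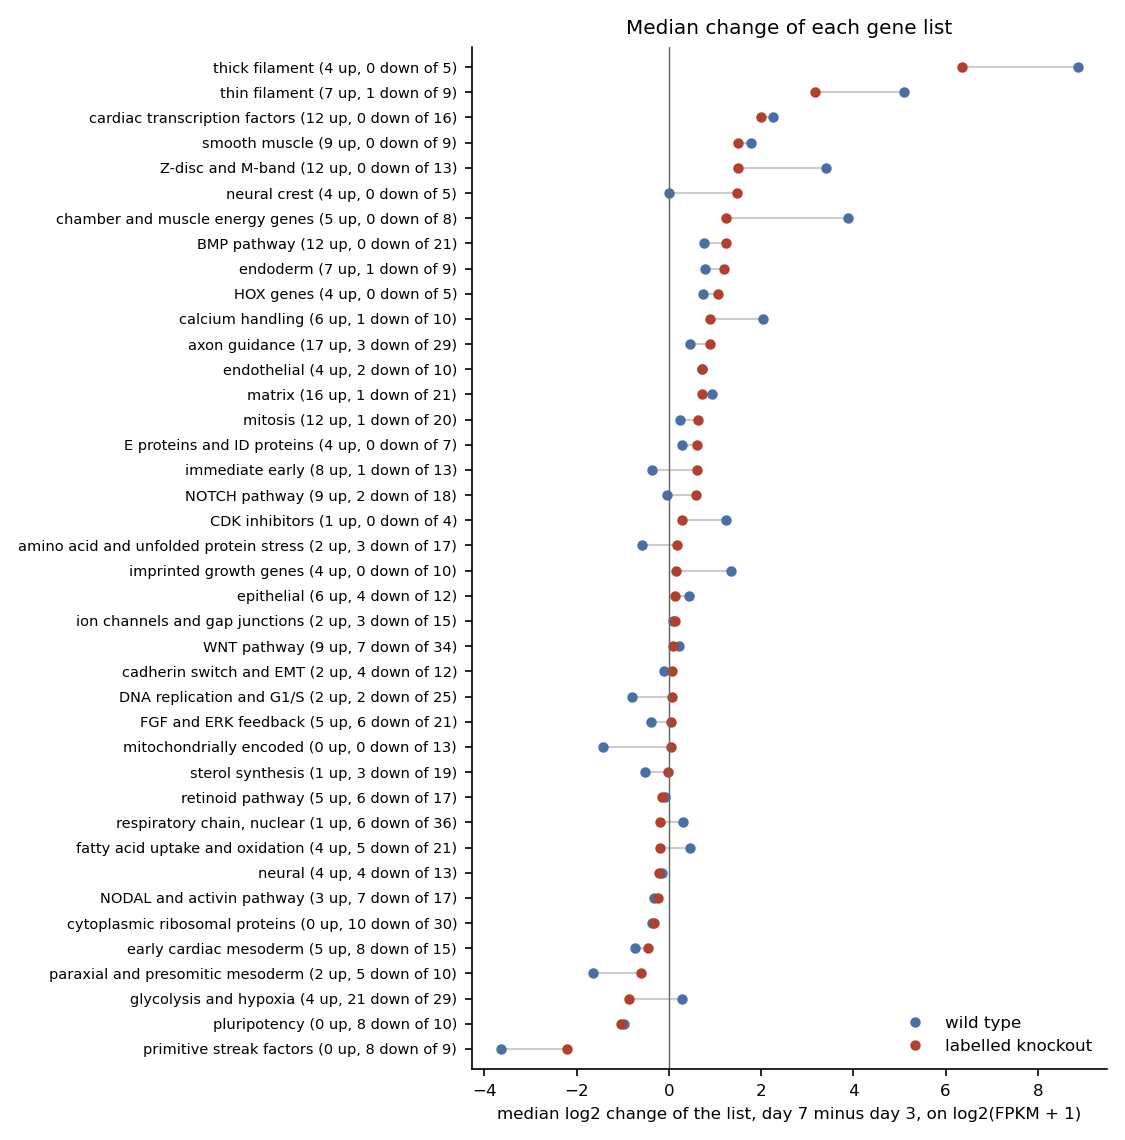
Median log2 change from day 3 to day 7 on log2(FPKM + 1) of each gene list with at least 4 members tested, red for the labelled knockout and blue for the wild type, with the counts of members that passed upward and downward in the labelled knockout beside each name. Filament lists stand at the top (6.34 for the thick filament) and streak factors at the bottom (-2.22), and glycolysis, the mitochondrially encoded genes and the neural crest list have medians far apart between the genotypes.

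The course of the labelled knockout was set against that of the wild type, in which 7128 genes passed (43.7%), 3442 higher (21.1%) and 3686 lower (22.6%). The difference of the 2 courses, tested as an interaction in the same limma fit, passed for 3285 genes (20.2%), with a positive sign for 1835 (11.3%) and a negative one for 1450 (8.9%). Of the genes that passed in both courses, 1561 rose in both and 1073 fell in both, 196 rose in the labelled knockout and fell in the wild type, and 106 did the reverse. Among those 1561 shared rises the difference passed for 417, and among the 1073 shared falls for 200. A further 1732 genes passed in the labelled knockout and not in the wild type, of which the difference passed for 641.

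The sarcomere rose less in the labelled knockout. The difference was negative and past the test for 4 of 5 thick filament, 7 of 9 thin filament, 7 of 13 Z-disc and 8 of 10 calcium handling genes, and positive for none of them, against 8.9% of all genes. MYH6 rose by 8.56 against 10.67 (difference -2.12, adjusted p = 5.7e-05 with limma), reaching 555 and 463 FPKM where the wild type reached 1921 and 1848 FPKM. For MYH7 the changes were 0.61 and 4.91, for NPPA 1.08 and 5.21, and for ACTN2 2.55 and 6.50. At day 15 MYH7 stood at 29.9 and 21.9 FPKM in the labelled knockout and at 395.5 and 462 FPKM in the wild type. CBLN2, a secreted synaptic protein and one of the 12 largest rises, changed by 4.75 and 4.89, a difference of -0.14 that did not pass. TXNIP, a glucose-responsive inhibitor of thioredoxin, rose from 8.53 and 8.43 to 251 and 258 FPKM (4.75) against 6.39.

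Streak genes MIXL1 and EOMES began lower than in the wild type. MIXL1 stood at 106 and 90.2 FPKM against 385 and 384 FPKM in the wild type, and fell by 5.45 against 5.55, a difference of 0.10 that did not pass. For EOMES (-4.96 against -5.82, adjusted p = 0.042) and FGF17 (-5.22 against -6.70, adjusted p = 0.0049) the difference passed in limma. EOMES started at 52.3 and 48.9 FPKM against 188 and 182 FPKM in the wild type, and FGF17 at 58.6 and 69.9 against 186 and 192 FPKM. From these lower starts even a fall to 0 FPKM would have been smaller than the wild-type fall. The sign of these 2 differences therefore cannot be read as a weaker fall. BHLHE40, a clock and hypoxia-responsive repressor that itself binds E-boxes, dropped from 19.6 and 19.3 to 0.372 and 0.897 FPKM (-3.66, SE 0.20). In the wild type it stood at 5.61 and 5.65, then 3.15 and 4.28 FPKM, and the difference passed (-3.16, adjusted p = 8.6e-05 with limma). At day 15 BHLHE40 was back at 12.8 and 9.94 FPKM in the labelled knockout, against 8.14 and 9.14 FPKM in the wild type.

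Of the 8 largest positive differences 7 were in genes that rose in the labelled knockout, and none of the 8 rose in the wild type. TPBG (chromosome 6, 82363206 to 82370828, plus strand), the WNT-modulating glycoprotein 5T4, went from 12.5 and 11.6 to 179 and 195 FPKM, a rise of 3.85 (SE 0.12, limma adjusted p = 1.52e-08), against a fall of 0.53 in the wild type. ZFHX4, a zinc finger homeobox factor, rose from 0.907 and 1.15 to 20.4 and 17.9 FPKM, and VGF, a neuropeptide precursor, from 1.77 and 3.11 to 21.2 and 18.9 FPKM. SP8, a zinc finger factor of limb and forebrain, went from 18 and 20.2 to 38.8 and 33.4 FPKM (0.88) while it fell by 3.09 in the wild type. CDH11, a mesenchymal cadherin, rose by 0.85 against a fall of 2.78, and that rise ended without either library of day 3 or without day 7 replicate 1. WNT3A, a ligand of streak and tail bud, did not pass, at 4.2 and 4.24 then 5.31 and 5.83 FPKM, while it dropped to 0.028 and 0.257 FPKM in the wild type.

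All 8 genes with the largest negative differences rose in the wild type. FABP3 fell by 0.83 against a rise of 3.67, a fall that ended without day 3 replicate 1. MASP1, a protease of the complement system, stood at 0.571 and 0.854 then 1.17 and 0.818 FPKM, against 21.9 and 24.7 FPKM in the wild type at day 7, and WNT11, a non-canonical ligand of heart formation, at 2.04 and 0.806 then 1.83 and 4.07 FPKM, against 34.4 and 43.1 FPKM. DLK1 rose from 74.2 and 91.8 to 261 and 257 FPKM, and by 5.53 in the wild type, where it began at 8.74 and 8.84 FPKM. GPR157, a receptor, stood at 38.2 and 1.92 FPKM in the 2 libraries of day 3. Its course did not pass (adjusted p = 0.191), and its difference of -4.98 ended under 5 of the leave-outs, namely without either labelled knockout library of day 7, either wild-type library of day 3, or wild-type day 7 replicate 2.

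**Figure D5:**
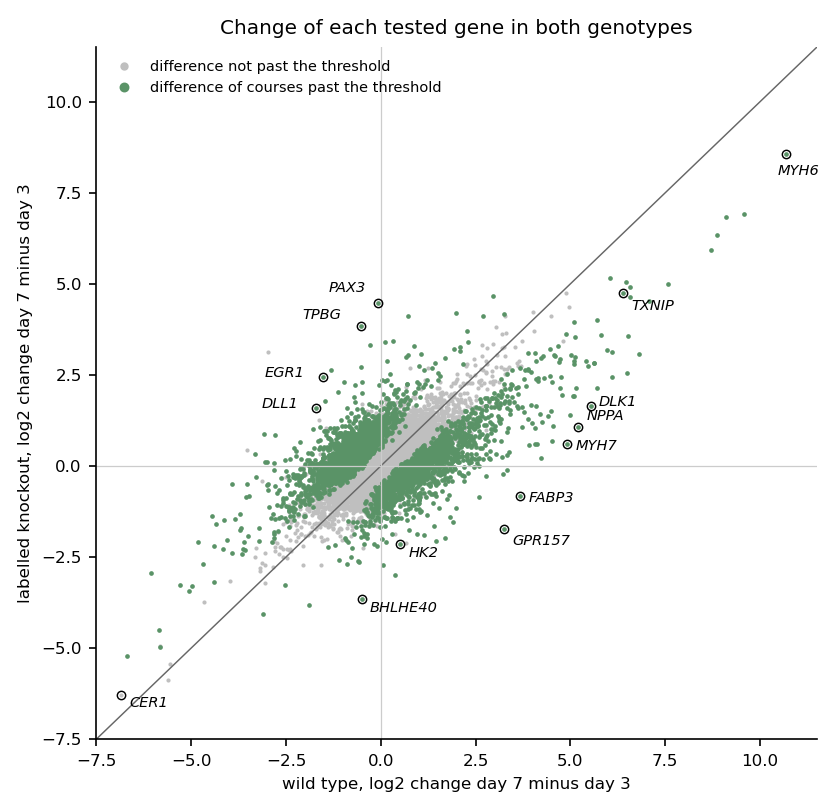
Each point is a gene, with its log2 change from day 3 to day 7 on log2(FPKM + 1) in the wild type on the horizontal axis and in the labelled knockout on the vertical axis, the diagonal marking equal change and green the 3285 genes whose difference passed. MYH6 lies furthest up on the right but below the diagonal (8.56 against 10.67), PAX3 and TPBG lie high near the zero of the wild type, and HK2, FABP3 and BHLHE40 lie below the zero of the labelled knockout.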

How the data were processed

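The 12 libraries of the series (2 for each genotype at days 3, 7 and 15) were sequenced on HiSeq X10 from total RNA, per the labels' protocols. BWA and the build hg38 (GRCh38) are named in the submitters' processing notes. The sources used here do not give the counting program, the annotation, the strand setting or any version. The deposited files hold 1 value per gene symbol, read as FPKM made by the authors from the size of the values, since the labels do not name the unit. They hold no read counts, so depth per library is not known here and no counting interval is given. Of 17096 symbols, 22 had been turned into dates and 18 lines repeat a symbol, and these were not named.

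The authors' FPKM values were put on a log2 scale here as log2(FPKM + 1). Genes with at least 1 FPKM in 2 or more of the 12 libraries were kept (16295, with 801 left out) and fitted with limma 3.58.1 (R 4.3.3, trend on), 6 group means and 6 residual degrees of freedom. The contrasts were day 7 minus day 3 in the labelled knockout, the same in the wild type, and their difference. P-values were adjusted by Benjamini-Hochberg over all genes tested, with a threshold of 0.05. The fit was tested on simulated data of 16067 genes for the labelled knockout course, where the recovered share was 62% of 100 genes moved by 1 (log2) and 95% of 100 moved by 2, with 5.99% of 167 calls false.

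The genes named are all E and ID proteins, the 12 largest rises and 12 largest falls of the labelled knockout course past the threshold with non-overlapping libraries and a group mean of 5 FPKM or more, up to 4 called members per list by adjusted p, up to 2 called in the list's minor direction and its highest member, the 8 largest differences of courses in each direction, and the 5 highest genes of day 7. Other members were named after their values were seen, mostly because 5 or fewer of a list were counted with them. The comparison, its members and the gene lists were chosen with earlier results of these data known. One gene list and some single genes are not reported here.

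Gene places are from GENCODE 29 (GRCh38), found for 15045 symbols, and upstream sequences are from RefSeq on GRCh38.p14. Replicates with the same number were not taken as pairs, because the labels do not tie them and there are only 2 numbers. Other scalings, filters, pseudocounts, fits and the leaving out of each library were tried. Python 3.11.15 with pandas 2.3.3, numpy 2.4.6 and matplotlib 3.10.9 made the tables and figures. The day 15 libraries entered the fit for the spread only, and contrasts with day 15 were left out. Levels of day 15 are given for MYH7 and BHLHE40 without a test.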

Additional observations from a re-analysis of the deposited data

Results flagged for a closer look

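The change from day 3 to day 7 differed between the genotypes for many named genes, by limma's test of the difference with Benjamini-Hochberg adjustment over all genes tested, a test that 20.2% of all genes passed. Given here are 23 of them, namely the 8 largest differences in each direction and the named genes whose courses both passed in opposite directions. In 13 of them both courses passed and went in opposite directions. The labelled knockout rose and the wild type fell in TPBG (difference 4.38, changes 3.85 and -0.53), SP8 (3.98, from 0.88 and -3.09), EGR1 (3.96, from 2.43 and -1.53), VGF (3.95, from 2.64 and -1.32), CDH11 (3.63, from 0.85 and -2.78), DLL1 (3.30, from 1.60 and -1.70), FOS (3.26, from 1.79 and -1.46), ASNS (1.54, from 0.41 and -1.13) and CCNB2 (1.12, from 0.76 and -0.36).

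The reverse held for FABP3 (difference -4.51, changes -0.83 and 3.67), HK2 (-2.66, from -2.15 and 0.52), ASPH (-1.02, from -0.55 and 0.47) and KDR (-0.94, from -0.42 and 0.52). In FABP3, ASPH, KDR, CDH11 and ASNS the change within the labelled knockout did not pass under every setting.

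In the others at least 1 course did not pass, or both went the same way. PAX3 (4.54), WNT3A (3.65) and ZFHX4 (3.58) had positive differences. GPR157 (-4.98), MYH7 (-4.30), NPPA (-4.13), MASP1 (-4.02), ACTN2 (-3.95), DLK1 (-3.89) and WNT11 (-3.83) had negative ones. For GPR157 the libraries of one group lay far apart, at 38.2 and 1.92 FPKM in the labelled knockout at day 3 and 15.1 and 55.8 FPKM in the wild type at day 7.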

How the results depend on the processing

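The count of genes that passed in the labelled knockout course was 2951 without replicate 1 of day 3 and between 2951 and 3296 over its 4 leave-outs, against 4668 with all libraries. The difference of courses passed for 3285 genes and for between 1930 and 2558 when any 1 library was left out, with 1973 and 2068 without wild-type replicates 1 and 2 of day 3, 1947 and 1930 without those of day 7. The wild-type count ranged from 5092 to 5316 over its leave-outs. Fewer libraries enter those fits. Under the other settings these 3 counts stayed within 1.5 times. No named change that had passed reversed. A change or a difference of courses of a named gene no longer passed in 97 of the comparisons by gene and setting, and 5 came to pass. Those named in the report are among the 97, and 5 of the 97 were the difference of courses of GPR157. The cause was not tested. The share of higher genes among those called in the labelled knockout, 60.2%, was 51.8% with median-ratio rescaling and 70.1% with scaling on summed nuclear genes, where the median over all genes was 0.00 and 0.14. With a replicate block the labelled knockout count was 4688, holding 4493 of the 4668, and the difference count 3316. Same-numbered libraries of days 3 and 7 deviated together at r of 0.155, which 2 numbers cannot turn into a pairing. A filter at 5 FPKM left 2 of the 5 falls of the paraxial list and 2 of the 4 HOX rises. Low genes and changes near 1 on the log2 scale are the least secure with 2 libraries a group.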
